A study of Mus musculus with 18 samples.

Results

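The circadian clock genes measured here were 10 genes out of 24346 listed in islet RNA: the activators Arntl (also called Bmal1), Clock and Npas2, the repressors Per1, Per2, Per3 and Cry1, the nuclear receptors Nr1d1 and Nr1d2 (REV-ERB alpha and beta), and the output gene Dbp. They were taken by symbol, and the set was chosen by the measured levels of Arntl and Dbp, which differed in opposite directions between the genotypes at 8 weeks. The 8-week values, and every comparison that uses an 8-week library, are therefore given as a description without a test. All 10 symbols were listed in every library. Of these, 9 reached 1 FPKM (fragments per kilobase of transcript, scaled to the mapped fragments of the library) in at least 3 of the 18 libraries and were among the 12234 genes tested. Npas2 did not reach 1 FPKM in any library.

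Islets, the endocrine clusters of the pancreas, came from C57BL/6 mice in which exon 2 of Cdh13, the gene for T-cadherin, was deleted, or from mice labelled as floxed, which carry the exon flanked by recombination sites. There were 6 groups of 3 libraries: deleted and floxed mice on chow at 8 weeks, on chow at 14 weeks, and at 14 weeks after 6 weeks of high-fat diet begun at 8 weeks of age. The labels name no Cre line or promoter and no cell type in which the exon was removed, and the study's design text calls the genotypes knockout and wild type. They do not say whether replicates were separate animals, so p-values measure the spread between these libraries.

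In a circadian clock, ARNTL pairs with CLOCK or NPAS2 and activates genes through E-boxes, among them the Per and Cry genes, Nr1d1, Nr1d2 and Dbp. PER and CRY proteins then inhibit that pair, and the REV-ERB proteins repress Arntl, so that in most rhythmic tissues Arntl RNA peaks far from Dbp, Nr1d1 and the Per genes in the day. DBP itself, with its relatives TEF and HLF, activates genes through D-boxes, and beta-cell clocks are known to shape insulin secretion. The clock time at which islets were isolated is not given in the sources used here, so a level in a library cannot be placed in the day, and phase was not measured.

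The promoter sequences of 4 members are shown because they hold the letters of these elements. RefSeq promoter windows (GRCm38.p6) were found for 9 of the 10 members, and only the 250 bases before the transcript start were searched, on both strands, for 4 motifs. Per3 held the D-box TTATGTAA at 205 and at 158 bases before its start, in a stretch at chr4:151044776-151044910 on the minus strand. Cry1 (chr10:85185069-85185173, minus strand) held the E'-box letters CACGTT, read as their reverse complement, and the E-box CACGTG. Per1 (chr11:69098743-69098828, plus strand, before a transcript start inside the gene's span) held the E-box, and Nr1d1 (chr11:98775378-98775445, minus strand) held the E'-box letters. Each stretch is given 5′ to 3′ on the gene's strand, outside annotated exons, with the motifs in capitals.
Per3: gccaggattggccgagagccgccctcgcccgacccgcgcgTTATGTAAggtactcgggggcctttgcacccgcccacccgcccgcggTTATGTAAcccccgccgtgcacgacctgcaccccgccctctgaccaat
Cry1: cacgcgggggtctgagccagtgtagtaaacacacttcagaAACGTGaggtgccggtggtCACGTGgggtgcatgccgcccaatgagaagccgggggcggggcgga
Per1: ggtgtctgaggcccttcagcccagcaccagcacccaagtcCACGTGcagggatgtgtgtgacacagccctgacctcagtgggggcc
Nr1d1: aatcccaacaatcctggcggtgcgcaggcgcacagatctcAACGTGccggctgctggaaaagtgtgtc

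The 9 members had 13 windows, since a gene can have several transcript starts. The E-box occurred in 2 of these 13 windows and in 6.02% of all 32851 windows. The E'-box occurred in 2 of 13 and in 3.85% of all windows, and the D-box (TTATGTAA or TTACGTAA) in 1 of 13 and in 0.931%. The core of the element bound by REV-ERB proteins (TAGGTCA or TGGGTCA) occurred in 0 of 13 and in 5.38%. A match is a description of letters in these windows and not a binding site.

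FPKM is scaled by gene length, so levels can be set side by side between genes. Nr1d2 had the highest mean over the 18 libraries, at 30.6 FPKM, followed by Dbp at 17.2, Nr1d1 at 15.4 and Cry1 at 14.2. Clock, Per2, Arntl and Per3 lay lower, at 8.23, 6.35, 6.33 and 4.38 FPKM. Per1 had a mean of 0.872 FPKM and reached 1 FPKM in 4 libraries, and Npas2, the partner that can stand in for CLOCK, had a mean of 0.413 FPKM. Among the 8 members above these, the highest library exceeded the lowest by 1.54 times for Cry1 up to 2.29 times for Nr1d2. In these bulk libraries, fewer cells of a type and less RNA per cell cannot be told apart.

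**Figure D1:**
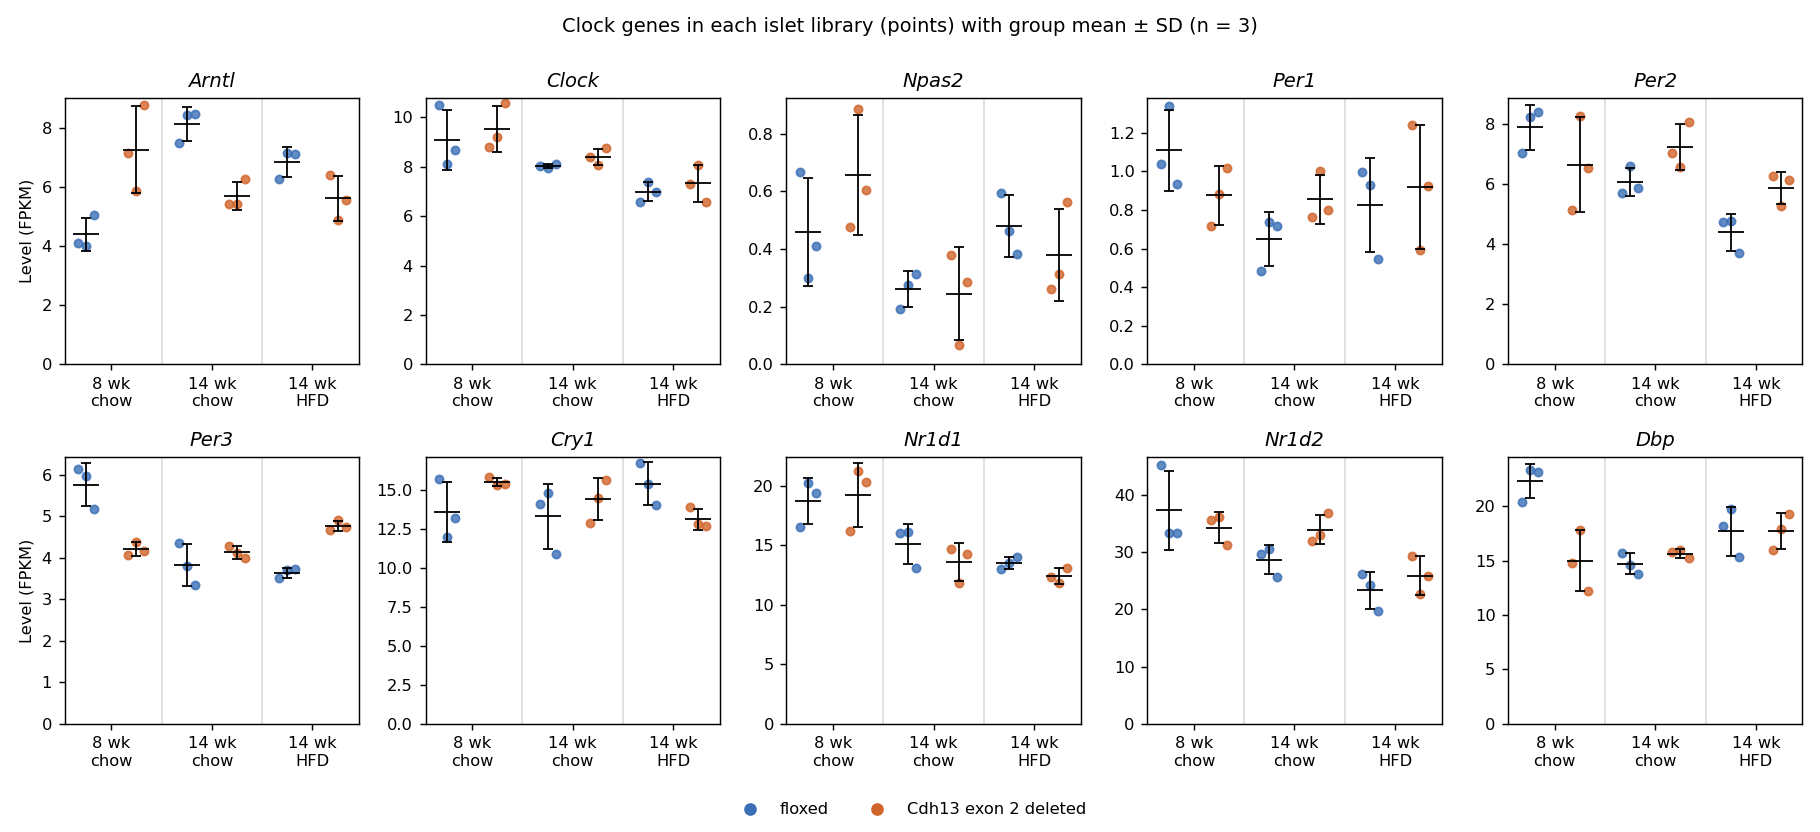
FPKM (vertical axes, from 0, on a separate scale for each gene) of the 10 clock genes in every library, by age, diet and genotype; points are libraries, and bars the group mean ± SD (n = 3). Arntl is lowest and Dbp highest in the floxed islets of 8 weeks, at 4.4 and 22.3 FPKM.

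Across the whole series, Cdh13 lay between 1.08 and 2.06 FPKM in floxed libraries and between 0.247 and 0.809 FPKM in deleted ones, a value over the whole gene and not over exon 2 alone. The libraries listed 11474 to 11787 genes at 1 FPKM or more. The sum of FPKM ran from 903346 to 1394009, and absolute depth is unknown. Beta-cell markers (7 genes, Ins1 and Ins2 among them) made up 49.3% to 62.5% of the summed FPKM. The most similar pair of libraries had a Pearson r of 0.996 over genes, and no library held the values of another.

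At 8 weeks, the values that chose the set were as follows. Arntl, the activator without which the loop stops, was at 4.12, 4.02 and 5.05 FPKM in the floxed libraries and at 7.17, 5.87 and 8.78 in the deleted ones. Every deleted library was above every floxed one, and the group means of 7.27 ± 1.46 and 4.4 ± 0.564 FPKM (SD, n = 3) stood in a ratio of 1.65. Dbp was at 20.4, 23.3 and 23.1 FPKM in the floxed libraries and at 14.8, 17.8 and 12.2 in the deleted ones, here with every deleted library below every floxed one. On log2(FPKM + 1), the scale of all differences below, deleted minus floxed was 0.61 ± 0.122 (SE) for Arntl and -0.55 ± 0.111 for Dbp.

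Per3, a period gene not needed for the core loop, was the remaining member whose 8-week groups did not overlap. It was at 6.13, 5.96 and 5.16 FPKM in the floxed and at 4.07, 4.38 and 4.15 in the deleted libraries, a difference of -0.37 ± 0.0936. That made 3 of the 9 members tested without overlap, beside 16.5% of all genes tested, a count the choice of the set itself bears on. The groups overlapped for the other 6 members, with differences from -0.24 for Per2 to 0.18 for Cry1. Nr1d1, a repressor of Arntl, was at 18.7 ± 1.92 FPKM in floxed and 19.2 ± 2.68 in deleted islets, and Nr1d2 at 37.3 ± 6.95 and 34.3 ± 2.74.

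Dbp shares 539 exon bases with Sphk2, a sphingosine kinase gene on the opposite strand, and Nr1d1 shares 263 with Thra, a thyroid hormone receptor gene. The library preparation does not mark strand, so reads from the shared bases cannot be told apart. Sphk2 was at 21.6 ± 0.967 FPKM in floxed and 17.3 ± 1.5 in deleted islets at 8 weeks, lower in the deleted group as Dbp was, and between 17.7 and 18.9 in the 4 groups of 14 weeks. Thra was at 5.45 ± 0.709 and 4.7 ± 0.475 FPKM at 8 weeks. Arntl shares 33 exon bases with an antisense gene, Gm45355, which was not used here.

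Markers of other islet cells also differed between the genotypes at 8 weeks. The 4 delta- and PP-cell markers summed to 9098 to 14283 FPKM in floxed and 36684 to 48698 in deleted libraries, with none listed at 0 throughout. That sum rests on Ppy, the pancreatic polypeptide gene, at means of 9830 and 39700 FPKM, while Sst, the somatostatin gene, was at 1800 and 1790 and the median difference of the 4 genes was -0.02. The 5 alpha-cell markers summed to 28907 to 33281 and 15816 to 23863 FPKM. The 6 endothelial markers summed to 110 to 149 FPKM in floxed and 152 to 168 in deleted libraries. Acinar sums overlapped, at 103 to 262 and 42.4 to 1513 FPKM. The part of these markers in the clock gene differences was not tested.

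**Figure D2:**
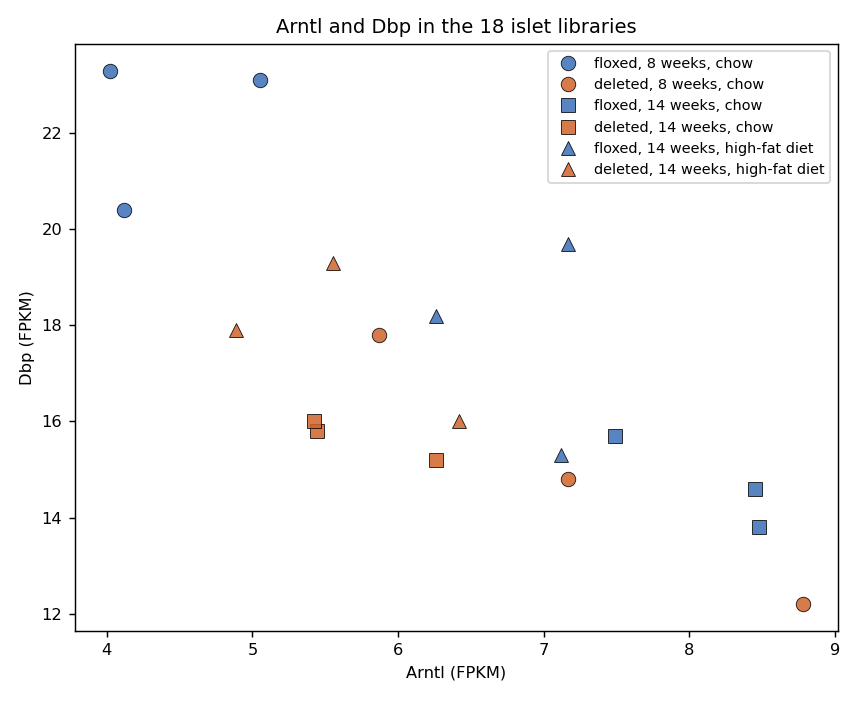
Arntl (horizontal axis, FPKM) against Dbp (vertical axis, FPKM) in the 18 libraries; colour marks genotype and shape age and diet, and neither axis starts at 0. The 3 floxed libraries of 8 weeks stand at the upper left, with Arntl at 4.02 to 5.05 and Dbp at 20.4 to 23.3.

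Between 8 and 14 weeks on chow, the floxed islets showed the widest spread of the set. Arntl stood at 7.49, 8.45 and 8.48 FPKM in the floxed libraries of 14 weeks, all above the 8-week floxed range, with a difference of 0.76 ± 0.122. Dbp stood at 15.7, 14.6 and 13.8 FPKM, all below the 8-week floxed range, with a difference of -0.57 ± 0.111. Per3 differed by -0.49, Nr1d2 by -0.36, Per1 by -0.35, Per2 by -0.33, Nr1d1 by -0.29 and Clock by -0.15, each without overlap. The member whose groups overlapped was Cry1, at 13.6 and 13.3 FPKM. In all, 8 of 9 members did not overlap, beside 23.5% of all genes tested. Per1, among these, reached 1 FPKM in 4 libraries. They include floxed 8-week replicates 1 and 2, at 1.04 and 1.34 FPKM, from its highest group. Without that group Per1 would not have passed the filter, so its place in this count is not independent of its 8-week level.

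In deleted islets the same ages gave 2 of 9 members without overlap, beside 20.2% of all genes. These were Nr1d1, at 16.2, 21.2 and 20.3 FPKM at 8 weeks and 14.7, 11.8 and 14.3 at 14 weeks (-0.47 ± 0.108), and Clock, at 9.54 and 8.4 FPKM (-0.16 ± 0.0968). Arntl differed by -0.29 with overlap, and Dbp by 0.07. These comparisons share their 8-week libraries with the genotype difference that chose the set and are not independent of it. Acinar markers (12 genes, of which Amy2a5 was listed at 0 in every library) summed to 103 to 262 FPKM in floxed islets at 8 weeks and 1167 to 5597 at 14 weeks. In deleted islets they summed to 42.4 to 1513 and 1706 to 3129 FPKM. Macrophage sums in floxed islets were 198 to 235 FPKM at 8 weeks and 296 to 341 at 14 weeks. In deleted islets they were 208 to 229 and 239 to 299 FPKM. Alpha-cell sums were 28907 to 33281 and 37880 to 41131 FPKM in floxed islets, and 15816 to 23863 and 31178 to 37064 in deleted ones. The beta-cell share was 56.2% to 56.9% and 49.4% to 51.8% in floxed islets, and in deleted islets 53.2% to 57.9% and 49.3% to 53.1%. The part of these markers in the age differences was not tested.

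The remaining comparisons use differences between libraries of 14 weeks, whose values were not the ones that chose the set. The members were, however, chosen with earlier results of these data known, so full independence from the choice cannot be assumed. The comparisons were fitted with limma across all 12234 genes, with Benjamini-Hochberg adjusted p-values. A gene was called where the adjusted p was below 0.05. The filter on low values and the estimate of the spread used all 18 libraries, including those that chose the set.

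In 14-week chow islets, Arntl was lower in the deleted libraries, at 5.44, 5.42 and 6.26 FPKM, than in the floxed ones, at 7.49, 8.45 and 8.48. The groups did not overlap, and deleted stood below floxed, where at 8 weeks it had stood above. The difference of -0.45 ± 0.122 had an adjusted p of 0.191 in limma and was not called. No member was called in this comparison, beside 0.114% of all genes; at an unadjusted p below 0.05 there was 1 of 9 members, Arntl, and 976 of all genes. Dbp was at 15.7, 14.6 and 13.8 FPKM in floxed and 15.8, 16 and 15.2 in deleted islets, a difference of 0.09 with overlap. Nr1d2 was at 29.7, 30.5 and 25.7 FPKM in floxed and at 32, 33 and 36.8 in deleted islets, without overlap, at 0.24 ± 0.121 and a limma adjusted p of 0.671. Per1 also did not overlap, at 0.648 ± 0.141 FPKM in floxed and 0.855 ± 0.127 in deleted islets (SD, n = 3). Its difference was 0.17 ± 0.146, with a limma adjusted p of 0.923.

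Under the high-fat diet, Per3 was higher in the deleted islets, at 4.67, 4.9 and 4.73 FPKM, than in the floxed ones, at 3.51, 3.7 and 3.72. The groups did not overlap, and the difference of 0.31 ± 0.0936 was called, with a limma adjusted p of 0.037. Per3 was the single member called, 1 of 9, beside 10.7% of all genes, so the count of members stands at the background of this comparison. Per2, a repressor of the activator pair, was at 6.25, 5.27 and 6.12 FPKM in deleted and 4.74, 4.75 and 3.69 in floxed islets, also without overlap, at 0.35 ± 0.13 and an adjusted p of 0.0881. Cry1 was at 13.9, 12.8 and 12.7 FPKM in deleted and 16.7, 15.4 and 14 in floxed islets, at -0.21 ± 0.108 and an adjusted p of 0.234. Dbp had the same mean in both genotypes, 17.7 FPKM. Arntl was at 6.42, 4.89 and 5.55 FPKM in deleted and 6.26, 7.17 and 7.12 in floxed islets, overlapping, with a difference of -0.25 ± 0.122.

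The Per3 call did not outlast the loss of any single high-fat library, nor a fit of the 12 libraries of 14 weeks alone (limma adjusted p 0.0527). Its adjusted p in limma was 0.076, 0.102 and 0.0757 without deleted replicates 1, 2 and 3, and 0.102, 0.074 and 0.0749 without floxed replicates 1, 2 and 3, at differences of 0.291 to 0.325. Alpha-cell markers moved with this comparison: 4 of 5 were called higher in deleted islets, and their sum was 36177 to 46606 FPKM against 23395 to 28287. Of the 4 delta- and PP-cell markers 3 were called higher, all but Ppy. The sums of the 4 overlapped, at 15014 to 24715 against 12746 to 19912 FPKM, and none of either list was at 0 throughout. Of 6 endothelial markers 3 were called lower, with sums of 115 to 122 against 136 to 176 FPKM. Of 7 beta-cell markers 2 were called higher, of 5 stromal markers 1 lower, and of 6 macrophage markers 1 higher and 1 lower. Their part in the Per3 difference was not tested.

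Over both 14-week conditions together, Arntl was lower in the deleted islets by a mean of 0.35 on the log2 scale, at -0.35 ± 0.0862 and a limma adjusted p of 0.0223. It was the single member called, 1 of 9, beside 4.94% of all genes. An exact two-sided permutation test of genotype within the conditions, over 400 arrangements, gave p = 0.01 for Arntl, where 0.005 is the smallest it can give, and p = 0.515 for Dbp at 0.04. Per2, at 0.29 ± 0.0921, had an adjusted p of 0.0839, and Per3, at 0.20 ± 0.0662, one of 0.0879. The Arntl call was lost, at limma adjusted p-values of 0.0503 to 0.0621, without deleted chow replicate 1, deleted high-fat replicate 2, floxed chow replicate 2 or 3, or floxed high-fat replicate 2 or 3, one at a time, while its difference stayed between -0.34 and -0.31. Endothelial markers moved with this comparison, 3 of 6 being called lower, with sums of 119 to 136 in deleted against 156 to 165 FPKM in floxed islets on chow. Of the delta- and PP-cell markers 2 of 4 were called higher, and of the macrophage markers 2 of 6 lower. Of the beta-cell markers 2 of 7 were called higher, and of the stromal markers 1 of 5 lower, with a median of -0.51 over the 5. Their part in the Arntl difference was not tested.

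**Figure D3:**
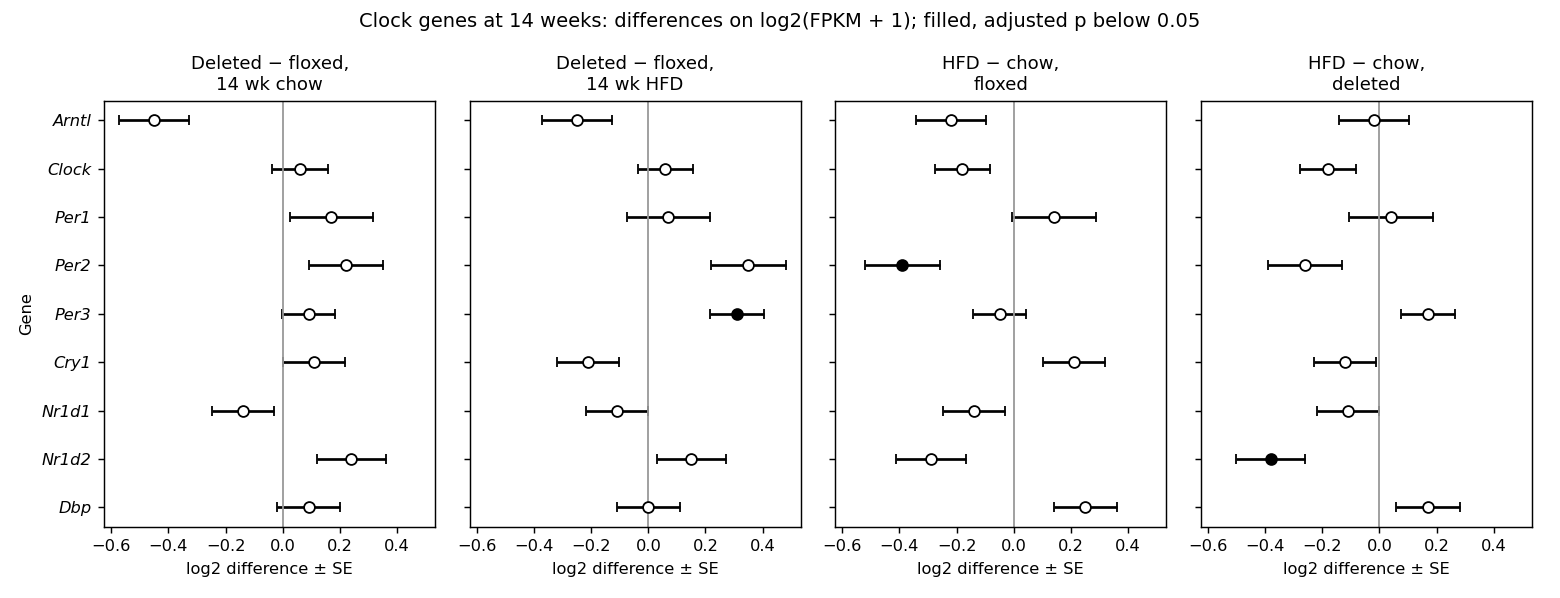
Differences on log2(FPKM + 1) with SE (horizontal axis) for the 9 tested clock genes (vertical axis) in 4 comparisons at 14 weeks; filled points had an adjusted p below 0.05. Filled are Per3 (0.31) between genotypes on high-fat diet, Per2 (-0.39) for diet in floxed islets and Nr1d2 (-0.38) for diet in deleted islets.

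In floxed islets, Per2 was lower on high-fat diet than on chow. It was at 5.71, 6.61 and 5.88 FPKM on chow and 4.74, 4.75 and 3.69 on high-fat diet, without overlap. The difference was -0.39 ± 0.13, with a limma adjusted p of 0.0289. This was the single call among the 9 members, beside 28.5% of all genes. It was lost without floxed chow replicate 2 (limma adjusted p 0.109), floxed chow replicate 3 (0.0512) or floxed high-fat replicate 3 (0.138), and with no filter on low values (0.0515).

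In deleted islets the called member was Nr1d2, the REV-ERB that acts beside Nr1d1 on Arntl. It was at 32, 33 and 36.8 FPKM on chow and 29.4, 22.6 and 25.9 on high-fat diet, without overlap. The difference was -0.38 ± 0.121, with a limma adjusted p of 0.0396, and 1 of 9 members called stood beside 15.0% of all genes. The call was lost without deleted chow replicate 1 (limma adjusted p 0.0604), 2 (0.067) or 3 (0.151), without deleted high-fat replicate 2 (0.183) or 3 (0.0896), and with no filter on low values (0.0794).

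Over both genotypes, 3 of 9 members were called for diet, beside 34.6% of all genes, which is the background share. Nr1d2 fell by 0.34 ± 0.0857 (limma adjusted p 0.00499) and Per2 fell by 0.33 ± 0.0921 (0.00995), and both kept their calls in every alternative run. Dbp rose by 0.21 ± 0.0782 (0.0451), from means of 14.7 and 15.6 FPKM on chow to 17.7 in each genotype on high-fat diet. An exact two-sided permutation of diet within the genotypes gave p = 0.02 for Dbp and p = 0.125 for Arntl, at -0.12. Clock, the partner of ARNTL, was at -0.18 ± 0.0684 with an adjusted p of 0.0504, and 10 of its 26 alternatives called it, at adjusted p-values from 0.0314 up to 0.128 over all 26. Nr1d1, at -0.13, had an adjusted p of 0.202.

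The Dbp call was lost in 11 of the 18 fits that left out a library. Its limma adjusted p was 0.0681, 0.0581 and 0.0837 without deleted chow replicates 1, 2 and 3, 0.0771 and 0.111 without deleted high-fat replicates 2 and 3, and 0.0767 and 0.0949 without floxed chow replicates 2 and 3. It was 0.0858 and 0.118 without floxed high-fat replicates 1 and 2, and 0.0508 and 0.0517 without floxed 8-week replicates 2 and 3. With no filter on low values it was 0.0769.

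Acinar markers differed far more than the clock genes between the diets. All 11 tested acinar markers were called lower on high-fat diet over both genotypes, with sums of 23.6 to 334 FPKM in floxed and 109 to 238 in deleted islets, against 1167 to 5597 and 1706 to 3129 on chow. Beta-cell markers made up 60.0% to 62.5% of summed FPKM on high-fat diet and 49.3% to 53.1% on chow. Macrophage markers were called lower on high-fat diet for 5 of 6 genes, with sums of 171 to 195 FPKM against 239 to 341, and stromal markers for 4 of 5, with sums of 5.08 to 22.6 against 16.4 to 39.5. In deleted islets, 3 of 5 alpha-cell and 2 of 4 delta- and PP-cell markers were called higher on high-fat diet, with alpha-cell sums of 36177 to 46606 against 31178 to 37064 FPKM and delta- and PP-cell sums of 15014 to 24715 against 5835 to 18557. In floxed islets, 1 of 5 alpha-cell markers was called lower, with sums of 23395 to 28287 against 37880 to 41131 FPKM. Of the delta- and PP-cell markers there, 3 of 4 were called lower, all but Ppy, with a median difference of -0.59 over the 4. The sum of the 4 did not fall with them, at 12746 to 19912 against 9161 to 18755 FPKM. Over both genotypes, 2 of 3 tested duct markers and 2 of 6 endothelial markers were also called lower on high-fat diet. The part of these markers in the diet differences of the clock genes was not tested.

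For the interaction of genotype and diet at 14 weeks, limma called 0 of 9 members, beside 3.53% of all genes. At an unadjusted limma p below 0.05 there was 1 of 9 members, Cry1, beside 2089 of all 12234 genes. Cry1, a strong repressor of the activator pair, was at 13.3 and 15.4 FPKM in floxed islets on chow and high-fat diet and at 14.4 and 13.1 in deleted islets, an interaction of -0.32 ± 0.153 with an adjusted p of 0.288. The interaction was 0.20 ± 0.172 for Arntl, 0.14 ± 0.184 for Per2 and 0.22 ± 0.132 for Per3. A difference in the effect of diet between genotypes was thus not shown for any member.

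**Figure D4:**
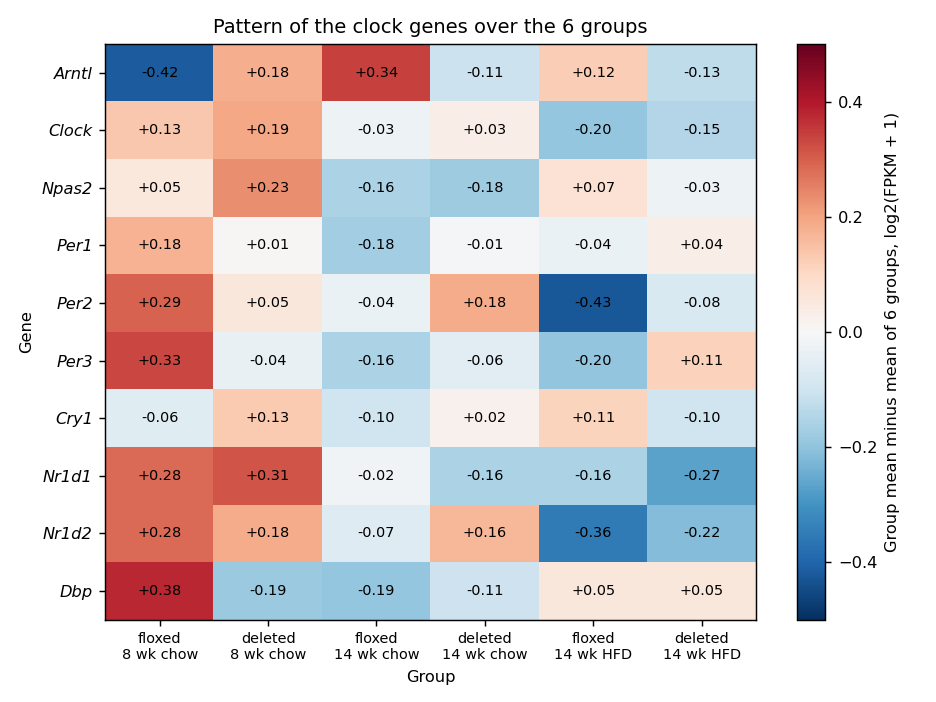
Mean log2(FPKM + 1) of each clock gene (rows) in each group (columns), minus the mean of its 6 group means; red is higher and blue lower, and each cell prints its value. Arntl runs from -0.42 in floxed islets of 8 weeks to 0.34 in floxed chow islets of 14 weeks, where Dbp runs from 0.38 to -0.19.

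Over the 6 groups, the order of the levels differed between members. From lowest to highest, Arntl ran floxed 8 weeks (4.4 FPKM), deleted high-fat (5.62), deleted 14-week chow (5.71), floxed high-fat (6.85), deleted 8 weeks (7.27) and floxed 14-week chow (8.14). Of these 5 neighbouring pairs only deleted 14-week chow and floxed high-fat did not overlap. Dbp ran from floxed 14-week chow (14.7) through deleted 8 weeks (15.0), deleted 14-week chow (15.6) and the high-fat groups (17.7 each) to floxed 8 weeks (22.3). Its non-overlapping neighbours were deleted 14-week chow with deleted high-fat, and floxed high-fat with floxed 8 weeks. By group means, floxed 8 weeks was lowest in Arntl and highest in Dbp. The 8-week levels of both genes chose the set, so this opposition is not independent of the choice. Floxed 14-week chow was highest in Arntl and lowest in Dbp by mean. For each gene, however, its range overlapped that of deleted 8 weeks.

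The ratio of Dbp to Arntl FPKM puts these extremes on 1 scale, as a description. It was 4.95, 5.78 and 4.57 in floxed islets of 8 weeks and 2.07, 3.03 and 1.39 in deleted islets of 8 weeks. It was 2.1, 1.72 and 1.63 in floxed and 2.9, 2.94 and 2.43 in deleted 14-week chow islets. On high-fat diet it was 2.91, 2.75 and 2.15 in floxed and 2.49, 3.66 and 3.48 in deleted islets. The floxed 8-week libraries were above every other library, and the deleted 14-week chow libraries were above the floxed ones, with no overlap.

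The other members did not repeat the order of Dbp. Per3 shared its highest group, floxed 8 weeks (5.75 FPKM), and had its lowest in floxed high-fat (3.64). Per2 ran from 4.39 in floxed high-fat to 7.88 in floxed 8 weeks, and Nr1d2 from 23.3 to 37.3 between the same groups. Nr1d1 had means of 18.7 and 19.2 FPKM at 8 weeks against 12.4 to 15.1 in the 4 groups of 14 weeks. Clock ran from 6.99 in floxed high-fat to 9.54 in deleted 8 weeks, with overlap at every neighbouring pair. Cry1 had the narrowest range of group means, 13.1 to 15.5 FPKM, again with overlap throughout. Npas2 ran from 0.245 to 0.656 and Per1 from 0.648 to 1.11 FPKM, with overlap at every neighbouring pair in this order. Groups of Per1 farther apart in the order could still separate, as the genotypes did on chow at 14 weeks.

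Over the 12 libraries of 14 weeks, Arntl was correlated with each of the other 9 members on the log2 scale, with p-values from 100000 permutations adjusted over the 9 pairs. None passed. Per3 had the largest coefficient, a Pearson r of -0.673 (permutation p = 0.0179, adjusted 0.161) and a Spearman rho of -0.594 (permutation p = 0.045, adjusted 0.32). Leaving out the 2 libraries farthest from the median of Arntl gave r = -0.537, and within the 4 groups it was -0.438 (permutation p = 0.125, adjusted 0.669). For Dbp, r was -0.505 (permutation p = 0.0957, adjusted 0.287), rho was -0.469 (permutation p = 0.128, adjusted 0.384), r without the 2 farthest libraries was -0.152 and r within groups was -0.48 (permutation p = 0.223, adjusted 0.669). The coefficient of Arntl and Dbp at 14 weeks was thus smaller without those 2 libraries. They are floxed chow replicates 2 and 3, which had the highest Arntl of 14 weeks (8.45 and 8.48 FPKM), so leaving them out also narrows the range of Arntl. With a single library left out, r ran from -0.713 to -0.36. For Nr1d1, r was 0.579 (permutation p = 0.0508, adjusted 0.228), rho was 0.545 (permutation p = 0.071, adjusted 0.32), 0.6 without the 2 farthest, and 0.146 within groups (permutation p = 0.674, adjusted 0.964).

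Of 20 further clock genes on a list set beside the members, 17 were tested. Between genotypes on high-fat diet, 2 were called higher in deleted islets and 1 lower, beside 10.7% of all genes called, with a list median of 0.09 beside 0.01 for all genes. Tef, a D-box activator related to Dbp, was at means of 18.4 FPKM in deleted and 13.9 in floxed islets (0.38 ± 0.0948, limma adjusted p 0.0132). Ciart, a repressor of the ARNTL and CLOCK pair, was at 25.8 and 20.4 FPKM (0.32 ± 0.0977, 0.0409). On chow at 14 weeks, 0 of 17 were called by limma, beside 0.114% of all genes. At an unadjusted limma p below 0.05 there was 1 of 17, Nfil3, beside 976 of all 12234 genes. Over both conditions 2 were called, beside 4.94% of all genes, both higher in deleted islets: Tef (0.24 ± 0.0671, adjusted p 0.0474) and Cry2, a cryptochrome repressor (0.25 ± 0.0718, 0.0485).

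For diet, 2 of the 17 rose and 5 fell in floxed islets, and 2 rose and 2 fell in deleted islets, beside 28.5% and 15.0% of all genes called. The list medians were -0.06 and 0.01, beside -0.01 and 0 for all genes. Bhlhe40, a repressor at E-boxes, fell in deleted islets from 25.3 to 12.7 FPKM (-0.94 ± 0.158, limma adjusted p 0.000719). In floxed islets Ciart fell from 27.6 to 20.4 FPKM (-0.41 ± 0.0977, 0.00373). For the interaction of genotype and diet, limma called 0 of 17, beside 3.53% of all genes. At an unadjusted limma p below 0.05 there were 5 of 17, beside 2089 of all 12234 genes. Of 11 tested genes on a list of outputs linked to the clock, Por, which passes electrons to cytochrome P450 enzymes, rose with diet from 65.1 to 98 FPKM in floxed (0.60 ± 0.141, limma adjusted p 0.00452) and from 66.9 to 98.6 in deleted islets (0.57 ± 0.141, 0.0119). It was the single output gene called for diet in floxed islets, and in deleted islets Nampt was called beside it, lower on high-fat diet. Nampt, the enzyme that salvages NAD, was also lower in deleted than floxed islets on high-fat diet, at 16 and 19.8 FPKM (-0.29 ± 0.0881, limma adjusted p 0.0378).

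The genes whose pattern was most like the Dbp to Arntl balance were taken among 647 non-members with a mean of at least 5 FPKM and an SD of at least 0.3 on the log2 scale, by Pearson r over the 18 libraries with log2(Dbp + 1) minus log2(Arntl + 1). These coefficients are a description, and they share libraries with the differences that chose the set. The highest were Erdr1 (0.631), Mir8095 (0.611), Stamos (0.605) and Akr1c19 (0.588), followed by Tsacc, Snora7a, Pdxp, Abhd17c, Cntfr and Atp6v0c, the tenth at 0.46. The lowest were Tgfbi (-0.712), Ier3 (-0.708), Pdlim1 (-0.705) and Litaf (-0.675), followed by Tm4sf1, Wfdc17, Thbs1, Rgs4, Ctss and Fxyd5, the tenth at -0.612. Ier3, a stress-induced gene, was at 11.4 FPKM in floxed 8-week islets and 24.5 in floxed 14-week chow islets, the 2 groups at the ends of the Arntl order. Bhlhe40, at -0.156, was near neither end.

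The members lie on GRCm38 at chr7:113207465-113314126 (Arntl, plus strand), chr7:45705088-45710203 (Dbp, plus), chr1:91415982-91459324 (Per2, minus), chr4:151003652-151044665 (Per3, minus) and chr14:18204054-18239127 (Nr1d2, minus), as annotated by GENCODE. Values are for whole genes. Per3 lies within the span of Camta1 on the same strand with no shared exon bases, and Camta1 was at 3.62 to 5.87 FPKM.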

How the data were processed

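Per the labels' protocols, islet RNA was reverse transcribed with a SMART-Seq HT kit before Nextera library preparation. The authors deposited 1 gene table per library. Its unit is taken as FPKM from the values and from Cufflinks 2.2.1, which the submitters' processing notes list beside SAMtools 0.1.19, Bowtie2 2.2.3, TopHat2 2.0.13 and mm10 without their roles. Depth per library is unknown, so no counting interval is possible. The members and all gene lists were chosen with earlier results of these data known. Groups came from the labels' genotype, age and diet. A gene was tested where 3 or more of the 18 libraries reached 1 FPKM (12234 of 24346 genes), in limma 3.58.1 (R 4.3.3) on log2(FPKM + 1), with 6 group means, a variance trend and robust moderation. The pseudocount of 1 understates changes of low genes such as Per1. The fit was tested on simulated data. Named genes were all 10 members, up to 4 genes of smallest p in a list with a call, and the 10 highest and lowest likeness coefficients. Replicate numbers were not taken to pair libraries: of 45 same-numbered pairs, 8 had correlations of deviations over 0.1 (median 0.0413), and of 90 differently numbered pairs 7 had (median -0.0159). Alternatives changed the pseudocount (to 0.1), the filter (none, or a mean of 5 FPKM), the scaling (by median ratio or quantiles), the weighting of samples by quality, and the libraries fitted (the 12 of 14 weeks, or each of 18 left out), or added a replicate block. Of the further clock genes, 1 gene is counted in the list and not reported here.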

Additional observations from a re-analysis of the deposited data

Results flagged for a closer look

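Arntl was higher in every deleted than in every floxed library at 8 weeks (0.61 on the log2 scale) and lower in every deleted than in every floxed library at 14 weeks on chow (-0.45). Per3 was lower in every deleted library at 8 weeks (-0.37) and higher in every deleted library at 14 weeks on high-fat diet (0.31). Both were flagged because the genotype difference has opposite signs without overlap at the 2 conditions. The 8-week direction of Arntl is one of the values that chose the set. At 8 weeks, 16.5% of all genes tested did not overlap between the genotypes. The share of all genes with such opposite signs was not computed, so no baseline stands beside these members. The change between conditions was not tested, since the 8-week libraries chose the set.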

How the results depend on the processing

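Each member and comparison at 14 weeks was recomputed under 26 alternatives (25 for Per1 and Per3, which a higher filter leaves out). Of these 1624 values, 1543 kept their direction and side of the threshold, 35 lost a call, 19 gained one and 27 changed sign, none of them called before or after. Part of this agreement was fixed in advance, so 1543 does not measure stability. Another filter, the 12 libraries alone, the replicate block or leaving out a library outside the comparison leaves a difference as it was. These runs can change only the adjusted p. The number of members called between genotypes on high-fat diet was 1, but 0 when the mean had to reach 5 FPKM or the 12 libraries of 14 weeks were fitted alone, and 0 to 2 over fits that left out a library. Between genotypes over both conditions it was 2 with sample quality weights and with the 12 libraries alone, and 0 to 2 over those fits. For diet it was 0 without a filter and 2 with quality weights in floxed islets (0 to 2), 0 without a filter in deleted islets (0 to 1), and 5 with quality weights over both genotypes (2 to 4). The higher filter removes Per3, the member called on high-fat diet, whose mean is 4.38 FPKM; the cause of the other changes was not tested. The fit with a replicate block called 0, 1, 1, 1, 1, 3 and 0 members in the 7 comparisons, as without the block; the labels do not give the pairing it assumes.

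Some differences not called changed sign. With quality weights Cry1 between genotypes on chow was -0.00588, Dbp between genotypes on high-fat diet -0.01 and the interaction of Clock 0.00322, and with quantile normalization Dbp between genotypes on high-fat diet was -0.00477. Fits that left out a library gave, between genotypes, ranges of -0.0122 to 0.194 for Cry1 on chow and, on high-fat diet, -0.00857 to 0.122 for Clock, -0.0497 to 0.194 for Per1 and -0.094 to 0.0792 for Dbp. Dbp over both conditions ran from -0.00394 to 0.0827, also in the exact test. For diet, ranges were -0.123 to 0.0265 for Per3 in floxed islets, -0.109 to 0.0578 for Arntl and -0.0795 to 0.164 for Per1 in deleted islets, and -0.0187 to 0.0841 for Cry1 over both genotypes. For the interaction they were -0.0668 to 0.064 for Clock, -0.222 to 0.0216 for Per1, -0.0643 to 0.119 for Nr1d1 and -0.2 to 0.0021 for Nr1d2. The exact test of diet for Arntl ran from -0.164 to -0.0809, with an exact p of 0.03 without deleted high-fat replicate 1. Depth is unknown, which bears most on Npas2 and Per1.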

Other observations

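Genes that answer glucocorticoids, temperature or acute stimulation, signals known to set peripheral clocks, were described beside the clock genes. On high-fat diet, the metallothionein genes Mt1 and Mt2 were higher in deleted than in floxed islets, at means of 9088 against 5732 FPKM (0.67 ± 0.127, limma adjusted p 0.00216) and 1986 against 1137 FPKM (0.81 ± 0.126, 0.000427). With Pdk4 they made 3 of 10 tested glucocorticoid-response genes called higher and 0 lower, beside 10.7% of all genes called in either direction. At an unadjusted limma p below 0.05 there were 4 of 10, these and Errfi1, beside 3146 of all 12234 genes. In the same comparison, 4 of 10 temperature-responsive genes were called lower, among them the chaperones Hspa8 (1122 against 1413 FPKM) and Hsp90aa1 (144 against 185). Rbm3, a cold-induced RNA-binding protein, was called higher, at 155 against 115 FPKM (0.42 ± 0.084, limma adjusted p 0.0026). The chaperones did not all move together. Hspa1a was higher in deleted islets, at 4.46 against 2.92 FPKM, with an unadjusted limma p below 0.05 and no call.

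With diet in floxed islets, where 28.5% of all genes were called, 6 of 10 temperature-responsive genes were called higher and 1 lower. Hsp90aa1 rose from 105 to 185 FPKM (0.82 ± 0.0679, limma adjusted p 1.04e-07), and Rbm3 fell from 152 to 115 FPKM (-0.39 ± 0.084, 0.00192). In deleted islets, where 15.0% of all genes were called, 4 of 10 rose and 0 fell. Of the 10 glucocorticoid-response genes, 0 rose and 3 fell with diet in floxed islets, and 2 rose and 1 fell in deleted islets. For the interaction of genotype and diet, limma called 2 of these 10, beside 3.53% of all genes. Of 15 tested immediate early genes, 2 rose and 4 fell with diet in floxed islets, and 2 rose and 1 fell in deleted islets, beside the same 28.5% and 15.0% of all genes. Between genotypes on chow at 14 weeks, limma called 0 genes of these lists, and the unadjusted p was below 0.05 for 1 glucocorticoid-response gene (Sgk1), 1 temperature-responsive gene (Hspb1) and 3 immediate early genes (Dusp1, Ier3 and Nr4a1). Of all 12234 genes, 976 had an unadjusted limma p below 0.05 in that comparison.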
